A study of Homo sapiens with 6 samples.

Results

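The genes described here are components of the endoplasmic reticulum (ER), the compartment in which secreted and membrane proteins are made, folded and checked. They are 38 genes picked by function: stress sensors and their transcription factors, the machinery that brings proteins into the ER, folding enzymes, chaperones, and the pathway that removes misfolded proteins. Of the 38, 37 were measured, among 18132 genes on the array, by 129 probe sets that carry a single gene symbol. SEC61G, the third subunit of the protein channel, was not analysed here. A375 is an established cell line from a human melanoma. Expression was compared between A375 cells given an shRNA (a short hairpin RNA that silences a gene) against UBE2S by lentivirus and control A375 cells. Both groups are of the same line, with 3 biological replicates and 1 Affymetrix array each. The sources used here do not say what the control cells received, how many hairpins were used or whether clones were picked. The values are log2 expression centred for each probe set on the median of the 6 arrays, so they show differences between arrays and hold no absolute level. All changes are knockdown minus control on the log2 scale, and a gene counts as changed at an adjusted p under 0.05 in limma. RNA came from whole cultures, so a change in every cell and a change in some of them cannot be told apart, nor fewer cells and less RNA per cell.

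UBE2S itself, the ubiquitin-conjugating enzyme that extends chains for the anaphase-promoting complex, stood at 23.5% of its control signal. Between the groups, without overlap, the hybridization spike-ins were 0.168 higher in knockdown arrays, and so were the poly-A spike-ins (0.0978) and the ACTB 3' minus 5' difference (0.191), a measure of RNA integrity. The GAPDH 3' minus 5' difference was 0.0226 higher, with overlap. Their part in the results below was not tested, and values after spike-in centring stand beside the genes they alter. Centred values cannot show that a marker is present, but the rounding of the values places each probe set in a high, middle or low class of signal. Of 7 melanocyte lineage markers measured, S100B (3 of 3 probe sets) and SOX10 (1 of 2) reached the high class. MITF, PMEL and S100A1 were in the middle class, and MLANA and TYR had 1 probe set each in the middle and the low class. Of 6 markers of other cell types none reached the high class: PTPRC (6 probe sets) and COL3A1 (5) were all low, CD3E and KRT14 were middle, and COL1A1 (4 of 5 middle) and KRT5 (1 of 2 middle) were mixed. The classes of both lists thus overlap, and apart from S100B and SOX10 they do not separate the labelled line from other cell types.

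Proteins enter the ER through the SEC61 channel, where the signal peptidase cuts off their leader, the translocon-associated protein complex assists, and chaperones and disulphide-forming enzymes fold the chain. When unfolded proteins build up, the membrane sensors ERN1 (IRE1), EIF2AK3 (PERK) and ATF6 start the unfolded protein response. ERN1 splices the XBP1 transcript, ATF6 is cut to release a transcription factor, and EIF2AK3 slows translation. Chains that fail to fold are drawn back into the cytosol and degraded, a process called ER-associated degradation (ERAD).

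XBP1 and ATF6 act on short promoter elements, and promoters that hold them are shown here beside how their genes moved. The windows searched, from RefSeq on GRCh38.p14, run from 250 bases before to 50 after each start, and 34 of the 38 genes had at least 1. The ER stress element ERSE (CCAAT and CCACG with 9 bases between them, both strands) was found in 6 of the 34 genes (17.6%), against 25 of all 27305 genes with a window (0.0916%). ERSE-II (ATTGG and CCACG with 1 base between them, both strands) was found in 3 of the 34 (8.82%) and in 19 of all genes (0.0696%). The element UPRE (TGACGTGG, both strands) was found in 4 of the 34 (11.8%) and in 253 of all genes (0.927%), and 0.0769%, 0.0541% and 0.729% of all 35116 windows held the 3 elements in that order. Below are the 250 bases before the start of the 3 genes with ERSE-II and of 2 genes with ERSE that moved in opposite directions. Capitals mark the matches.
HERPUD1: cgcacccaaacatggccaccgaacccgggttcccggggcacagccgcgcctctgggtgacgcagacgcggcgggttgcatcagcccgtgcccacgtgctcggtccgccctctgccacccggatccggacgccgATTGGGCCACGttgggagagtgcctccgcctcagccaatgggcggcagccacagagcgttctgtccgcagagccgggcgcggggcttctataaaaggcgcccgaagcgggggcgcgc
HYOU1: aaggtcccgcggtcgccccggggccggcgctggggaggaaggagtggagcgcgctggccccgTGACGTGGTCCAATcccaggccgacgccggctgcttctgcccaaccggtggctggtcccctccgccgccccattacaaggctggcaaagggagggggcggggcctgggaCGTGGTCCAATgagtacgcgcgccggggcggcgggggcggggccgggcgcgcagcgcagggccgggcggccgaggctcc
SDF2L1: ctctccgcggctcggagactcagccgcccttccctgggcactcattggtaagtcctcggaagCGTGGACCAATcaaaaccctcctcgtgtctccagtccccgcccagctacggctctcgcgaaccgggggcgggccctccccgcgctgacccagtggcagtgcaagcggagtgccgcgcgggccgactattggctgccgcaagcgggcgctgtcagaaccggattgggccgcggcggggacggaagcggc
XBP1: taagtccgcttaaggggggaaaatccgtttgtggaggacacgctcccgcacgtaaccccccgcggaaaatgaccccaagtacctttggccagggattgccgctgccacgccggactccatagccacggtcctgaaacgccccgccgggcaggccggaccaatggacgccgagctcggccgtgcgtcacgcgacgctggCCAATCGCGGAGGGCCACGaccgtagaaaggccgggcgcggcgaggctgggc
ERO1B: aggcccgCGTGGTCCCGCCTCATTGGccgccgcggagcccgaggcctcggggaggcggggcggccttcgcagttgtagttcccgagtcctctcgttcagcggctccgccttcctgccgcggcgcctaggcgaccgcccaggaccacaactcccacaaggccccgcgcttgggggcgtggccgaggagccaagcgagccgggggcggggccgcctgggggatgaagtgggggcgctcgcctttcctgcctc
HERPUD1 is at chr16:56931892-56932141 on the plus strand, SDF2L1 at chr22:21642052-21642301 on the plus strand and XBP1 at chr22:28800570-28800819 on the minus strand. HYOU1 is at chr11:119057206-119057455 and ERO1B at chr1:236281959-236282208, both on the minus strand. In HYOU1 the first capitals join a UPRE match (bases -188 to -181 from the start) and an ERSE-II match that overlaps it (-185 to -175), and a further ERSE-II match lies at -79 to -69. These matches are letters in a window and do not show that a factor binds. Genes and elements were both chosen for their part in ER stress and folding, so the higher shares among the 34 are no test.

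Across the 37 measured genes, 9 were higher in knockdown cells, 16 were lower and 12 did not pass the test. Lower were 3 of 4 channel genes, 3 of 4 translocon-associated genes and 4 of 6 genes of disulphide formation. So were 3 of 4 other chaperones and secreted stress proteins and 1 of 3 signal peptidase genes. Of the rest, 1 of 9 ERAD genes, 1 of 5 sensors and transcription factors and 0 of 2 lectin chaperones were lower. Of all 18132 genes, 40.1% changed, with 21.4% higher and 18.6% lower, against 24.3% and 43.2% of the measured members, so the share that rose was near the background. The members are read by brighter probe sets than most: 71 of their 129 (55%) lay in the high class, against 25.7% of all probe sets. Among the 6486 genes with a high-class probe set 59.6% changed and 30.7% fell, against 72.7% and 48.5% of the 33 members with one. The median change of the members was -0.068, against -0.0038 over all genes. Centring on the hybridization spike-ins moved the median of all genes to -0.17 and left 2 members higher (EDEM3 and ERO1B) and 23 lower, where 9.73% of all genes rose and 50.7% fell. Poly-A spike-in centring moved it to -0.10, with 4 members higher and 22 lower, where 13.7% of all genes rose and 34.7% fell. The count of 9 rises fell to 5 without knockdown replicate 3 and to 5 without control replicate 1. The groups did not overlap in 28 of the 37 genes, against 50.0% of all genes.

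**Figure D1:**
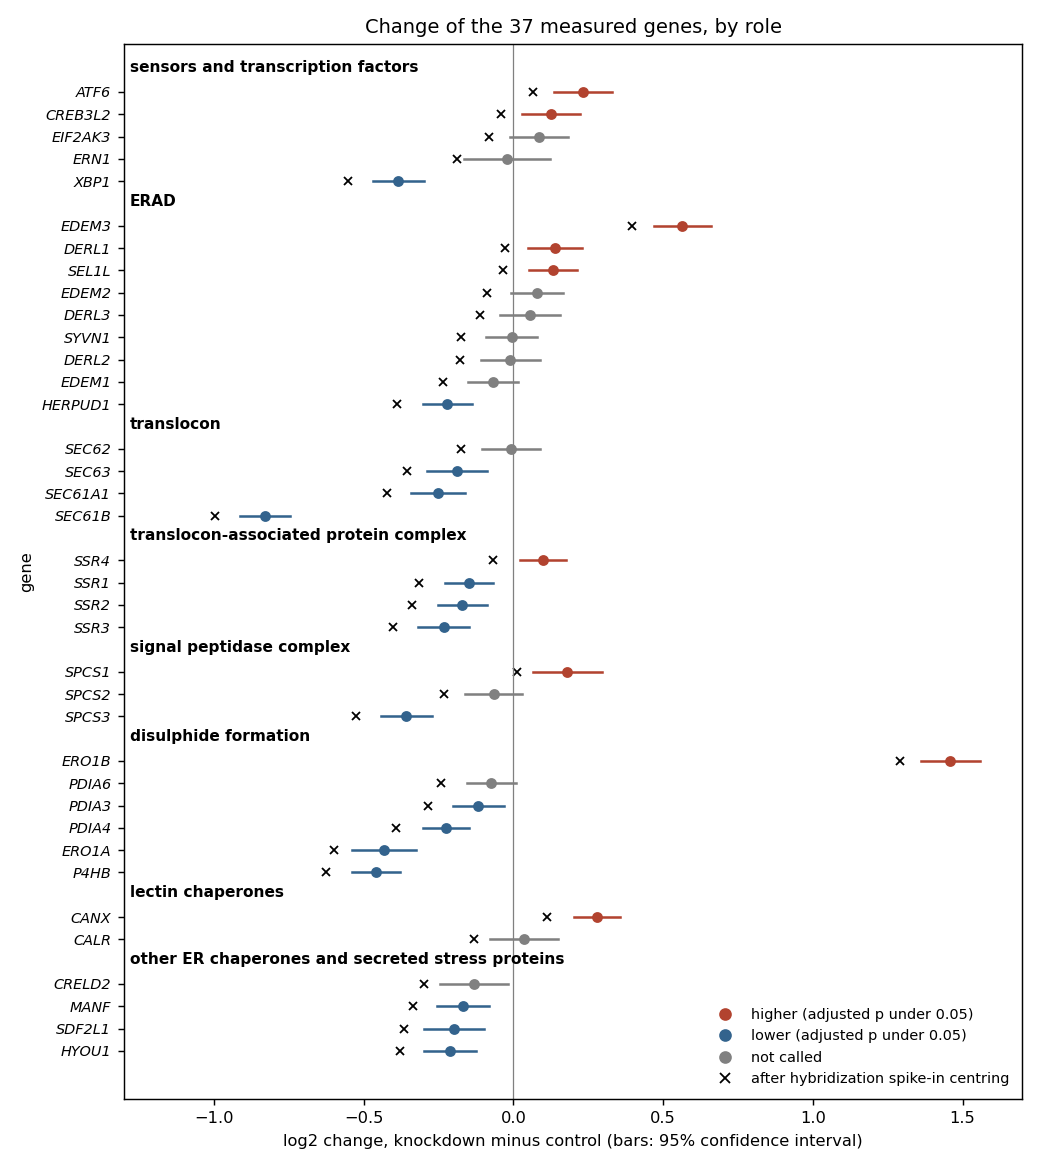
Log2 change, knockdown minus control (x axis), of each of the 37 genes (y axis, by role), with 95% confidence intervals from limma and colours for the call. Crosses give the change after centring on hybridization spike-ins. ERO1B (1.46) and SEC61B (-0.83) are the extremes, and all crosses lie 0.168 to the left of the points.

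Most of these changes were small, and 7 members changed by at least 0.3, a share close to the 17.9% of all genes that did. ERO1B (Entrez 56605), an oxidase that recharges protein disulphide isomerases and is best known from the pancreas, had the largest change. It stood at 0.71, 0.71 and 0.75 in the knockdown arrays and at -0.81, -0.69 and -0.70 in the control arrays. Every knockdown array was far above every control array. The rise of 1.46 (SE 0.04), or 2.75-fold, had an adjusted p of 3.56e-07 and was the 23rd largest among all 18132 genes. All 4 of its probe sets rose, by 0.95 to 1.67, and all 4 were of the middle class.

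ERO1A (Entrez 30001), the widely expressed oxidase of the same family, moved the other way. Its values were -0.20, -0.21 and -0.33 in knockdown arrays and 0.22, 0.15 and 0.18 in control arrays. Knockdown replicate 3 was the lowest, and the groups did not overlap. The fall was -0.43 (SE 0.05, adjusted p = 1.54e-04), with -0.64 and -0.22 for its 2 probe sets, of which only the first passed the test. The 95% intervals of the changes were 1.36 to 1.56 for ERO1B and -0.54 to -0.32 for ERO1A.

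P4HB (Entrez 5034), the founding protein disulphide isomerase and the main substrate of these oxidases, fell. It stood at -0.23, -0.25 and -0.22 in knockdown arrays and at 0.24, 0.25 and 0.19 in control arrays. The arrays of each group lay close together and the groups were well apart. The difference was -0.46 (SE 0.03, adjusted p = 2.50e-05), and all 6 probe sets, each of the high class, fell, by between -0.66 and -0.22. The related isomerase PDIA4 fell (-0.23, SE 0.03, adjusted p = 8.52e-04), in all 3 of its probe sets. PDIA3, the isomerase that works with calnexin and calreticulin on glycoproteins, fell in the mean of its probe sets (-0.12, adjusted p = 0.0363). Its 2 probe sets disagreed, with -0.37 for the middle-class one and 0.13 for the high-class one, and both passed the test. The call for PDIA3 was lost in 4 of the 6 fits that left out 1 array, those without knockdown replicates 1 or 3 and without control replicates 1 or 2. PDIA6 stood at -0.073 (95% interval -0.16 to 0.0088) and did not pass, but passed as lower after hybridization (-0.24) and poly-A (-0.17) spike-in centring. Of the 6 genes of disulphide formation, 4 fell and 1 rose, where 18.6% of all genes fell and 21.4% rose. Among all genes with a high-class probe set, 30.7% fell.

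**Figure D2:**
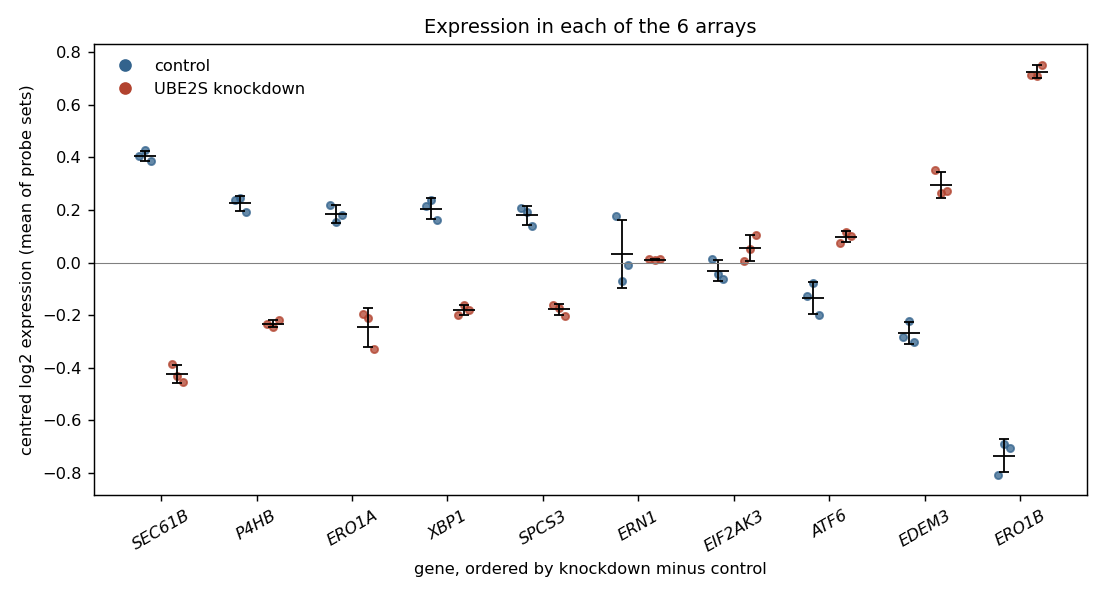
Centred log2 expression (y axis) in each of the 3 control (blue) and 3 knockdown (red) arrays for the 7 genes that changed by at least 0.3 and the sensors ATF6, ERN1 and EIF2AK3 (x axis). Points are arrays, and bars give the mean and SD. The groups overlap only in ERN1 and EIF2AK3.

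Among the channel genes, SEC61B (Entrez 10952), the small beta subunit of the SEC61 channel, had the largest fall of all members. It stood at -0.39, -0.43 and -0.45 in knockdown arrays and at 0.40, 0.43 and 0.39 in control arrays. Every knockdown array was far below every control array. The fall of -0.83 (SE 0.04), or 1.78-fold, had an adjusted p of 1.73e-06 and was the 153rd largest among all genes. A single probe set of the high class reads this gene. SEC61A1, the pore-forming alpha subunit, fell (-0.25, SE 0.04, adjusted p = 0.00112), with -0.37 to -0.10 over 3 probe sets. SEC63, which links the channel to the chaperone HSPA5, fell (-0.19, SE 0.04, adjusted p = 0.00935), with 1 of its 3 probe sets passing. SEC62, its partner in post-translational import, stood at -0.0082 (95% interval -0.10 to 0.088) and did not pass, but its 9 probe sets ran from -0.35 to 0.25, with 3 higher and 1 lower. Of the 4 channel genes measured, 3 fell and 0 rose at the threshold, where 18.6% of all genes fell and 21.4% rose. All 4 have a high-class probe set, and of all genes with one 30.7% fell and 28.9% rose. SEC62 passed with a fall of -0.18 after hybridization spike-in centring.

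The translocon-associated protein complex binds beside the channel and helps chosen signal sequences to insert. Its subunits SSR1 (-0.15, SE 0.03), SSR2 (-0.17, SE 0.04) and SSR3 (-0.23, SE 0.04) fell, with adjusted p-values of 0.00948, 0.00550 and 0.00117. In SSR2 both probe sets fell, in SSR1 6 of 8 and in SSR3 2 of 4. With probe sets that the array does not name as shared, SSR1 no longer passed (-0.071). SSR4, the fourth subunit, rose by 0.10 (SE 0.03, adjusted p = 0.0438), a rise that turned to -0.068 after hybridization spike-in centring, and whose call was lost without any 1 of the 6 arrays.

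The signal peptidase complex cuts the leader from the incoming chain. SPCS3 (Entrez 60559), a subunit needed for its activity, stood at -0.16, -0.17 and -0.20 in knockdown arrays and at 0.21, 0.19 and 0.14 in control arrays. The groups did not overlap, and the fall was -0.36 (SE 0.04, adjusted p = 1.23e-04). In 2 of its 3 probe sets it fell (-0.56 and -0.47), and the remaining one stood at -0.042 and did not pass. SPCS2 stood at -0.066 (95% interval -0.16 to 0.029) and did not pass, but passed as lower after hybridization (-0.23) and poly-A (-0.16) spike-in centring. SPCS1 rose by 0.18 (SE 0.05, adjusted p = 0.0210), and its values in knockdown arrays were 0.15, 0.0012 and 0.13. That rise was 0.013 after hybridization spike-in centring, and its call was lost without knockdown replicates 1 or 3 or control replicate 1.

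Of the sensors and transcription factors, XBP1 fell, ATF6 and CREB3L2 rose, and ERN1 and EIF2AK3 did not pass. XBP1 (Entrez 7494), the transcription factor of the ERN1 arm, stood at -0.20, -0.16 and -0.18 in knockdown arrays and at 0.22, 0.24 and 0.16 in control arrays. The groups were clearly apart. The fall was -0.38 (SE 0.04, adjusted p = 8.98e-05), or 1.31-fold. It is read by 1 probe set of the high class, and this value does not separate spliced from unspliced transcript. ATF6 stood at 0.075, 0.12 and 0.10 in knockdown arrays and at -0.13, -0.079 and -0.20 in control arrays. Its rise of 0.23 (SE 0.04, adjusted p = 0.00243) was 0.066 after hybridization spike-in centring and no longer passed. After poly-A spike-in centring the rise was 0.14 and passed.

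ERN1 stood at 0.014, 0.0079 and 0.012 in knockdown arrays and at 0.18, -0.071 and -0.010 in control arrays. Control replicate 1 was the highest of all 6, and the groups overlapped. The difference was -0.021 (95% interval -0.17 to 0.12). EIF2AK3 stood at 0.0053, 0.052 and 0.11 in knockdown arrays and at 0.013, -0.044 and -0.062 in control arrays. The groups overlapped, and the difference was 0.085 (95% interval -0.011 to 0.18). It passed as higher (0.13) with unshared probe sets alone. CREB3L2, a membrane-bound factor related to ATF6, rose by 0.13 (SE 0.04, adjusted p = 0.0436) and turned to -0.042 after hybridization spike-in centring. Of its 7 probe sets 3 rose, and the 2 of the high class stood at -0.015 and -0.0065 and did not pass. CREB3L2 lost its call with unshared probe sets alone (0.12), and without knockdown replicates 2 or 3 or control replicates 1 or 3.

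Of 9 ERAD genes, 3 rose, 1 fell and 5 did not pass, which is close to the 40.1% of all genes that changed. EDEM3 (Entrez 80267), one of the mannosidase-like proteins that mark misfolded glycoproteins for removal, stood at 0.35, 0.26 and 0.27 in knockdown arrays and at -0.28, -0.22 and -0.30 in control arrays. The groups did not overlap. The rise was 0.56 (SE 0.04), or 1.48-fold, with an adjusted p of 2.21e-05. Of its 5 probe sets, 4 rose, by 0.56 to 0.68, and the fifth stood at 0.26 and did not pass. Its relatives EDEM1 (-0.068, 95% interval -0.15 to 0.016) and EDEM2 (0.081, 95% interval -0.0062 to 0.17) did not pass. The EDEM1 probe set of the high class fell (-0.30), as did 1 of the middle class (-0.13), and the other 3 did not pass.

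HERPUD1, a stress-induced membrane protein that helps to assemble the ERAD complex, fell (-0.22, SE 0.04, adjusted p = 0.00134), in 3 of its 4 probe sets. SEL1L, the scaffold of the ubiquitin ligase complex, rose by 0.13 (SE 0.03, adjusted p = 0.0159), and DERL1, a channel protein, by 0.14 (SE 0.04, adjusted p = 0.0213). Both turned slightly negative after hybridization spike-in centring (-0.036 and -0.029). SEL1L lost its call without control replicate 2, and DERL1 without knockdown replicates 2 or 3 or control replicates 1 or 3. SYVN1, the ligase that SEL1L holds, stood at -0.0057 (95% interval -0.092 to 0.080), DERL2 at -0.0095 and DERL3 at 0.057, and none of the 3 passed. After hybridization spike-in centring SYVN1 (-0.17), DERL2 (-0.18) and EDEM1 (-0.24) passed as lower.

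The lectin chaperones hold newly made glycoproteins while they fold. CANX, the membrane-bound calnexin, rose by 0.28 (SE 0.03, adjusted p = 2.73e-04), from -0.14 ± 0.02 in control arrays to 0.14 ± 0.01 in knockdown arrays (SD, n = 3). Of its 9 probe sets, the 8 of the high class rose and the 1 of the middle class fell (-0.22). The rise was 0.11 after hybridization spike-in centring and no longer passed, but after poly-A spike-in centring it was 0.18 and passed. CALR, the soluble calreticulin, stood at 0.035 (95% interval -0.078 to 0.15) and did not pass.

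Of the 4 other chaperones and secreted stress proteins, 3 fell and 1 did not pass, where 18.6% of all genes fell. All 4 have a high-class probe set, and 30.7% of all genes with one fell. HYOU1, an ER chaperone of the HSP70 class, fell (-0.21, SE 0.04, adjusted p = 0.00231), in 5 of its 9 probe sets. SDF2L1, a partner of ER chaperones, fell (-0.20, SE 0.04, adjusted p = 0.00723), and MANF, a secreted survival factor, fell (-0.17, SE 0.04, adjusted p = 0.00790), each read by 1 probe set. CRELD2, a stress-induced secreted protein, stood at -0.13 (95% interval -0.25 to -0.019) with an adjusted p of 0.0647 and did not pass. It passed under both spike-in centrings and without control replicate 1 (-0.18).

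**Figure D3:**
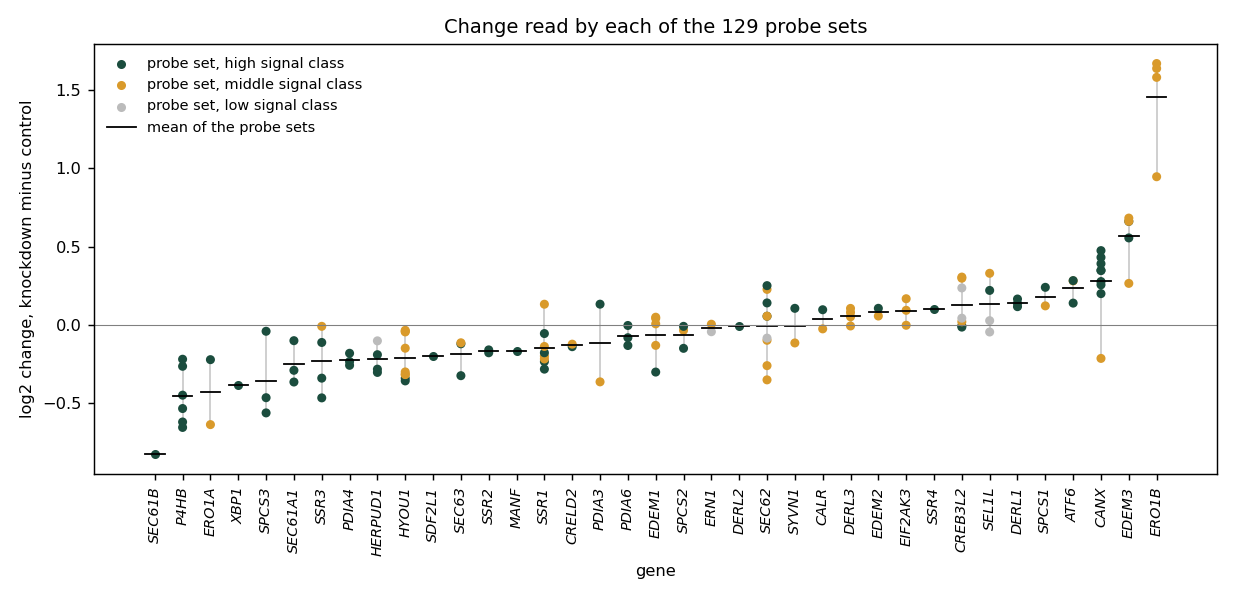
Log2 change, knockdown minus control (y axis), of each of the 129 probe sets, by gene (x axis, ordered by the mean). Points are probe sets coloured by signal class, and black lines are the means used in the tests. The probe sets of CANX, SEC62, PDIA3 and SSR1 lie on both sides of 0, and those of ERO1B, EDEM3 and P4HB on 1 side.

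Set against the promoter letters, the 3 genes with ERSE-II (HERPUD1, HYOU1 and SDF2L1) all fell, between -0.22 and -0.20. Of the 6 with ERSE, XBP1 fell, ERO1B and CANX rose, and PDIA6, CALR and CRELD2 did not pass. Of all 16 measured genes whose window holds ERSE-II, the 3 members included, 4 were higher, 6 were lower and 6 did not pass (median -0.062). With ERSE or ERSE-II, the 9 members included, 9 of 34 measured genes were higher, 10 were lower and 15 did not pass (median -0.045). Of all genes, 21.4% were higher and 18.6% lower. The 4 genes with UPRE were SSR3 and HYOU1, which fell, SSR4, which rose, and SEC62, which did not pass. Of 160 measured genes with a UPRE match, 41 were higher and 26 lower (median 0.025), where 21.4% of all genes were higher and 18.6% lower.

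The rest of the ER pathway was read from a list of 93 other genes chosen by function, of which 90 were measured. Of these, 27 were higher, 30 lower and 33 did not pass, where 21.4% of all genes were higher and 18.6% lower. Among all genes with a high-class probe set, 28.9% were higher and 30.7% lower. Both shares of the 90 were near these, but how many of the 90 have such a probe set was not counted. That background may therefore not match them. The median of the 90 was 0.0029. After hybridization spike-in centring 15 were higher and 51 lower, where 9.73% of all genes were higher and 50.7% lower, so the share of falls was then near the background. The largest falls were in SRPRA, the receptor subunit that brings ribosomes to the ER membrane (-1.57, SE 0.05), TMX1, a membrane thioredoxin (-0.71, SE 0.03), DNAJB11, a cochaperone of HSPA5 (-0.60, SE 0.04), and the sulphydryl oxidase QSOX1 (-0.52, SE 0.04). SRPRA stood at -0.75, -0.90 and -0.78 in knockdown arrays and at 0.81, 0.73 and 0.75 in control arrays. Its groups were further apart than those of ERO1B, and its 5 probe sets fell between -2.14 and -0.62. Those of TMX1 ran from -1.14 to -0.0092.

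The largest rises were in PPP1R15B, a phosphatase subunit that reverses the translation block of EIF2AK3 (0.99, SE 0.04), GANAB, the catalytic subunit of glucosidase II (0.85, SE 0.03), MBTPS2, a protease that cuts ATF6 (0.82, SE 0.05), and SERP1, a stress-associated membrane protein (0.71, SE 0.04). The 8 had adjusted p-values from 4.23e-07 to 4.27e-05. The probe sets of SERP1 ran from -0.18 to 1.01. HSPA5 (BiP), the main HSP70 chaperone of the ER, fell (-0.45, SE 0.04, adjusted p = 3.16e-05), with -0.58 to -0.23 over 6 probe sets. HSP90B1 stood at 0.047 (95% interval -0.051 to 0.14) and did not pass. Downstream of EIF2AK3, ATF4 fell (-0.28, SE 0.04, adjusted p = 4.87e-04) while DDIT3, a target of ATF4, rose by 0.70 (SE 0.05, adjusted p = 1.97e-05).

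Split by complex or step, a grouping made after the values were seen, 5 of 8 genes of the signal recognition particle and its receptor fell and 0 rose, where 18.6% of all genes and 30.7% of those with a high-class probe set fell and 21.4% of all genes rose. Of 6 other thiol oxidoreductases measured, 4 fell and 0 rose. The oligosaccharyltransferase, which adds glycans, had 3 of 10 subunits lower and 1 higher, and the EMC insertase had 4 of 8 lower and 2 higher. Of 16 ERAD cofactors 4 rose and 3 fell. Rises outnumbered falls also in the EIF2AK3 (PERK) arm (3 and 2 of 5) and in glycan trimming (3 and 2 of 7). The group named HSP70 system of the ER had 3 rises and 2 falls among 7. That group includes HSP90B1, which is not of the HSP70 class, and leaves out the member HYOU1, which fell (-0.21). These groups are small, and no test was made of them.

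**Figure D4:**
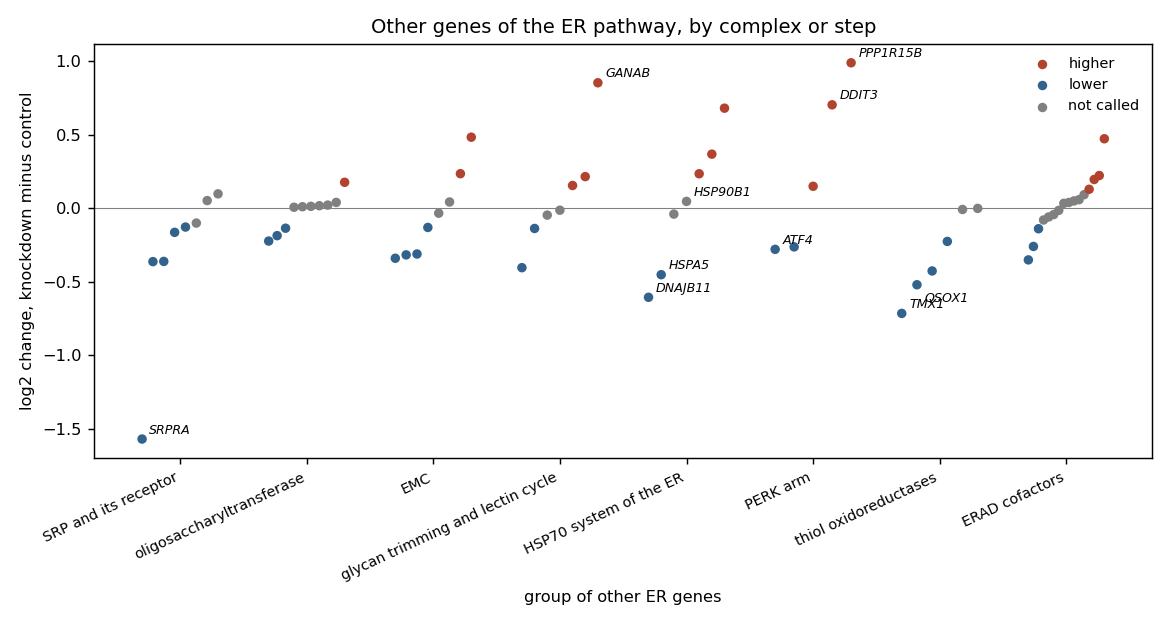
Log2 change, knockdown minus control (y axis), of other ER genes grouped by complex or step (x axis). Points are genes coloured by call in limma. SRPRA (-1.57) lies far below all others shown, and PPP1R15B (0.99) is the highest.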

How the data were processed

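Total RNA of 3 knockdown and 3 control cultures was labelled with biotin and hybridized to Affymetrix arrays, per the labels' protocols. Per the submitters' processing notes, RMA, affy and limma were used, with no version or role stated. The deposited values are log2 expression, with the base taken from RMA's output. Each probe set is centred on the median of the 6 arrays, so signal over background is unknown, and the main fit used no filter on level. An alternative fit left out the low class of signal. The number of arrays limits the precision.

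Beside 102 controls, 44988 probe sets had 1 symbol in the platform's annotation, 1832 had several and 2473 had none. A gene is the mean of its single-symbol probe sets. Knockdown and control were compared in R 4.3.3 with limma 3.58.1 (lmFit, then eBayes) over 18132 genes, without a block, two-sided, with Benjamini-Hochberg adjustment over all of them. The function was tested on simulated data. Signal classes come from the rounding step of the values, which places a probe set in one of 3 ranges of original signal. The low class took 13 of the 23 background controls, which means that the other classes are no proof of detection. Each replicate pair differed (SD of the difference 0.125 to 0.144). The replicates are called biological, with no more said of their origin.

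The members, the lists and the tests were chosen with earlier results of these data known. Values per array are given for members that changed by at least 0.3, XBP1 and the 3 sensors. Of the other ER genes, up to 4 per direction are named by size, plus HSPA5, HSP90B1, ATF4 and DDIT3. Promoters are RefSeq's, and the array files name no genome build.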

Additional observations from a re-analysis of the deposited data

Results flagged for a closer look

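Control probe sets outside the comparison of genes differed between the groups without overlap. The 18 hybridization spike-in probe sets were 0.168 higher in knockdown arrays on the log2 scale. The 24 poly-A spike-in probe sets were 0.0978 higher. The 3' minus 5' difference of the ACTB control probe sets was 0.191 higher. Groups of 3 arrays are too small for a check of single arrays that stand apart.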

How the results depend on the processing

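Of the 25 changed members, 16 kept their call and direction under every alternative run, among them all 7 that changed by at least 0.3. Scaling had the largest effect. After hybridization spike-in centring 2 members were higher, and 15 other ER genes were higher and 51 lower. CREB3L2 (-0.042), SEL1L (-0.036), DERL1 (-0.029) and SSR4 (-0.068) turned negative there, none of them past the threshold. After poly-A spike-in centring 4 members were higher. Leaving out 1 array at a time gave 5 to 7 higher and 15 to 16 lower members, 24 to 27 higher and 24 to 30 lower other ER genes, and a UBE2S change between -2.12 and -2.05. The labels do not say whether equal replicate numbers pair the arrays. Correlations of deviations for equal numbers (-0.030, -0.017 and -0.10) showed no pairing, but with so few arrays they cannot exclude it. With the replicate block 7 members were higher and 15 lower, and 26 other ER genes were higher and 25 lower. The probe set of largest variance, array weights, median centring, the robust variance model, leaving out the low signal class and unshared probe sets alone kept both member counts within 1.5 times, and UBE2S has no unshared probe set.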

Other observations

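Genes in this paragraph were chosen after their values were seen. DNAJB9, a cochaperone of HSPA5 and a known target of spliced XBP1, stood at 0.42, 0.28 and 0.29 in knockdown arrays and at -0.36, -0.27 and -0.42 in control arrays. Its rise of 0.68 (SE 0.05, adjusted p = 3.33e-05 in limma) was opposite in sign to the changes of XBP1 (-0.38) and HSPA5 (-0.45), and was 0.51 after hybridization spike-in centring. ERP44, which retains ERO1 oxidases in the ER, fell (-0.43, SE 0.04). UBXN4, a membrane anchor of the ERAD machinery, rose by 0.47 (SE 0.04), and the EMC subunit EMC2 by 0.48 (SE 0.04), while EMC subunits as a group had 4 falls among 8.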
